A study of Mus musculus with 21 samples.

Results

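Lipopolysaccharide (LPS) and CpG DNA were compared in 7 pairs of mouse peritoneal macrophage cultures. Each pair holds an LPS library and a CpG library with the same genotype label and the same added protein, so 14 of the 21 RNA sequencing libraries of the series enter the comparison and the 7 libraries without a stimulus serve as background. The pairs were wild type without protein, wild type with lumican, wild type with biglycan, Lum-/- label without protein, Lum-/- label with lumican, Bgn-/- label without protein and Bgn-/- label with biglycan. Lum encodes lumican and Bgn encodes biglycan, matrix proteins of the small leucine-rich proteoglycan family.

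All groups share the C57BL/6 background and the cell source. The protocols in the labels describe peritoneal lavage without elicitation (mice n = 10), after which cells were selected for CD11b, a myeloid integrin, and kept in culture overnight. LPS was given at 100 ng/mL or CpG at 1 µM for 6 h in serum-free medium, and recombinant lumican or biglycan at 10 µg/mL was added 1 h earlier where a pair has protein. Biglycan knockouts are described as Bgn-/0 or Bgn-/-, since the gene is on chromosome X. Each combination has 1 library, and which animal a culture came from is not given in the labels. A p-value below therefore measures how evenly LPS and CpG differed over the 7 pairs, not the spread between animals, and genotype cannot be told apart from the cell preparation.

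LPS is recognised at the cell surface by TLR4 with MD-2 (Ly96) and CD14, and signals through the adaptor MyD88 and, after uptake into endosomes, through TRIF (Ticam1), which drives interferon-β. CpG DNA is recognised by TLR9 inside endosomes and signals through MyD88. Both routes activate NF-κB and AP-1, while interferon made early acts back on the cells through JAK and STAT proteins and induces antiviral genes.

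Levels are in TPM, transcripts scaled to a fixed total per library: a gene's share of its library corrected for transcript length. Differences are LPS minus CpG on the log2(TPM + 1) scale, averaged over the pairs and given with their standard error (SE). Because a share falls when others grow, each test was repeated after median-of-ratios scaling, which sets the typical gene to no difference, and a gene is called higher or lower only where it passed on both scales in the same direction. A fold on the log2(TPM + 1) scale understates the difference of genes near 0.

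The targeted genes went against the knockout labels. Lum was highest in the libraries labelled Lum-/-, at 14.1 and 12.0 TPM with LPS and 2.88 and 3.93 TPM with CpG, against 0 to 1.40 TPM in the other 10 libraries. Bgn was highest in the libraries labelled Bgn-/-, at 0.758 and 1.18 TPM with LPS and 3.49 and 3.03 TPM with CpG. Its mean over the 14 libraries was under 1 TPM, so Bgn was not tested. Transcript reads from a disrupted gene do not show a functional protein, and an exchange of labels cannot be told apart from these values. The groups are called by their labels throughout, and each comparison of labels below carries that doubt. Macrophage markers were abundant in all 14 libraries but not alike: their summed level over 10 genes was 13861 to 17802 TPM with LPS and 33473 to 38295 TPM with CpG, most of it Lyz2, while the F4/80 gene Adgre1 ranged from 542 to 632 TPM in both. Summed B cell markers were at 828 to 1199 TPM with LPS and 1032 to 1609 TPM with CpG, and summed T and NK cell markers at 6.25 to 13.3 and 6.98 to 12.2 TPM, ranges that overlap. Other marker sums did not overlap: neutrophil markers were at 352 to 423 TPM with LPS and 222 to 277 TPM with CpG, eosinophil markers at 35.5 to 78.0 and 108 to 295 TPM, and dendritic cell markers at 22.4 to 30.8 and 50.3 to 66.0 TPM. The part of these markers in the results below was not tested. Among the libraries without a stimulus, the untreated library labelled Lum-/- and the library labelled Bgn-/- with biglycan stood apart. They correlated at 0.982 with each other across genes and at most at 0.954 with the other 5, which correlated at 0.973 to 0.985 among themselves. Unstimulated ranges below are over those 5 unless all 7 are named, and no test uses them.

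The upstream sequences of 6 genes are shown because their letters carry the motifs named in the results: the interferon-stimulated genes Ifit1 and Rsad2, the chemokine genes Cxcl10 and Cxcl2, the cytokine gene Il6 and the sterol enzyme gene Hmgcs1. Each line gives the 220 bases before the RefSeq start (GRCm38.p6), 5′ to 3′ on the gene's strand, with motif matches in capitals.
Ifit1, chr19:34640669-34640888, plus strand: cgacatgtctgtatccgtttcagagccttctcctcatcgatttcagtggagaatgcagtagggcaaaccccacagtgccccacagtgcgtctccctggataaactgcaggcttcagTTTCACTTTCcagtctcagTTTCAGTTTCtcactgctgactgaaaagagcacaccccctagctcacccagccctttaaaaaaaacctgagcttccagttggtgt
Rsad2, chr12:26456453-26456672, minus strand: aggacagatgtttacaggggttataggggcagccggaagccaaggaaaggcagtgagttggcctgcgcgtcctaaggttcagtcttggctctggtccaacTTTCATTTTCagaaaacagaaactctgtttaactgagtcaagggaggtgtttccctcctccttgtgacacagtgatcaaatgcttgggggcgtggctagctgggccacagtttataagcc
Cxcl10, chr5:92348890-92349109, minus strand: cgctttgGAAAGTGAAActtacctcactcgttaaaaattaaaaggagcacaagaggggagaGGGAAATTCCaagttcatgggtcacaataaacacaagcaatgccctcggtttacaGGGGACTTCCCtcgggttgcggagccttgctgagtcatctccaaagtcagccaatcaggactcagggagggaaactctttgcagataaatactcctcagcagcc
Il6, chr5:30012894-30013113, plus strand: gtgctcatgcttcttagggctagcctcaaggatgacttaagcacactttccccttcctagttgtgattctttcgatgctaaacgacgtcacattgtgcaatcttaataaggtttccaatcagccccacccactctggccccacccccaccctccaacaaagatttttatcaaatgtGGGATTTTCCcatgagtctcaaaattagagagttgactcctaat
Cxcl2, chr5:90903679-90903898, plus strand: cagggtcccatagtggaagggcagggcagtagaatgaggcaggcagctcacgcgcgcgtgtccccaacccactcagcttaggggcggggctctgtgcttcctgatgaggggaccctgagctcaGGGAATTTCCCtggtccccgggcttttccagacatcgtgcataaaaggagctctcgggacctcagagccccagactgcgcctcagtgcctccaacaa
Hmgcs1, chr13:119690131-119690350, plus strand: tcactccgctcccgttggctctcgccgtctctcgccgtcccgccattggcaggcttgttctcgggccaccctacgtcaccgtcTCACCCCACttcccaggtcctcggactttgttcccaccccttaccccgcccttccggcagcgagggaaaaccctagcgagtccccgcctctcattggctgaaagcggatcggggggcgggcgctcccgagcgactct
In Ifit1 and Rsad2 the capitals mark the core of the interferon-stimulated response element (ISRE), GAAA repeated after any 2 bases, on either strand. Cxcl10 holds 1 ISRE core and matches to the NF-κB consensus, of which the last pair overlap each other. Il6 has 1 NF-κB match and Cxcl2 a pair that overlap, and in Hmgcs1 the capitals mark the sterol regulatory element core TCACNCCAC. A match describes letters only and says nothing about binding.

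LPS and CpG left the cells with widely different transcriptomes. Of 11518 genes tested with limma at a Benjamini-Hochberg adjusted p under 0.05, 1507 were higher with LPS on both scales (13.1%) and 4566 were lower (39.6%), together 52.7%. Each list count below is to be read beside these shares of 13.1% and 39.6%. Either direction was called for 88.8% on TPM alone and for 78.6% after scaling alone. At least 2-fold on both scales, 573 were higher (4.97%) and 987 lower (8.57%). On TPM alone 8721 genes were lower (75.7%), and after scaling 4484 were higher (38.9%) and 4566 lower (39.6%), since the median over all tested genes was -0.70 on TPM and -0.01 after scaling. The median lay between -0.79 and -0.61 in each of the 7 pairs. Between 10461 and 10851 genes reached 1 TPM with LPS, against 11574 to 11842 with CpG.

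Abundant genes held a large share of TPM with both stimuli, and somewhat more with LPS. The top 20 genes held 31.91% to 34.98% of all TPM with LPS and 25.67% to 29.94% with CpG. The 1507 genes higher on both scales held 46.7% to 52.6% with LPS and 19.4% to 26.8% with CpG. These genes were selected for being higher with LPS, so the direction of this last contrast follows from the selection. The largest gains in mean TPM belonged to Saa3, an acute-phase serum amyloid (105042 TPM with LPS, 82800 TPM with CpG), Cxcl2 (20877 and 567 TPM), Il1b (17667 and 279.5 TPM) and Ccl3 (17441 and 392.9 TPM). The 15 genes with the largest gains made up 54.4% of the summed gain over all genes. Saa3 was already abundant without a stimulus, at 49287 to 94125 TPM, and its LPS and CpG ranges overlapped, whereas those of the other 3 did not. Its difference of 0.36 ± 0.07 lost its call when genes with low values were kept in the test (limma adjusted p = 0.286).

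**Figure D1:**
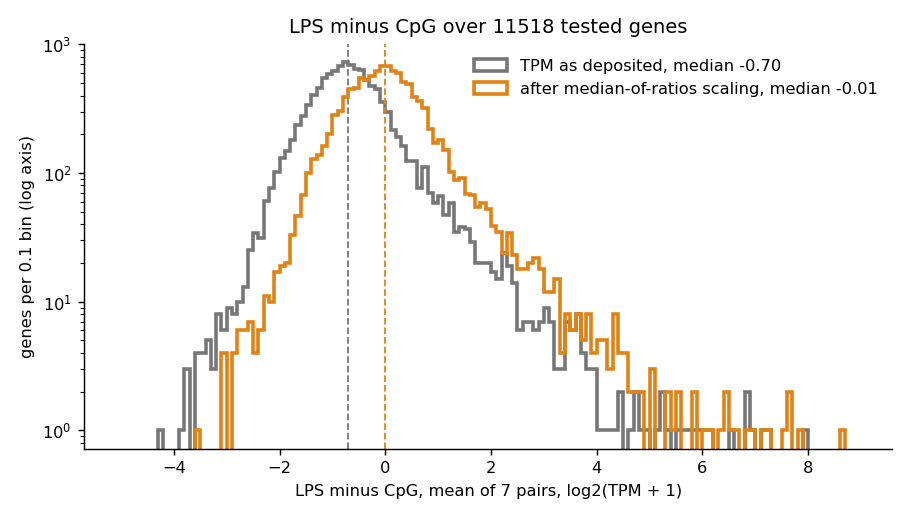
Distribution of LPS minus CpG (x axis, log2(TPM + 1), mean of 7 pairs) over 11518 tested genes, as the number of genes per 0.1 bin (log axis). Grey is TPM as deposited with its median at -0.70, orange the same after median-of-ratios scaling with its median at -0.01 (dashed lines), and both have a longer tail towards higher with LPS.

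Inflammatory cytokines had the highest list median. Of 18 tested members, 16 were higher with LPS, 1 was lower and the list median was 3.70 (4.29 after scaling) against -0.70 (-0.01) for all genes. Il6, a cytokine of fever and the acute phase (chromosome 5, 30013114 to 30019981), was at 2542, 3279 and 3515 TPM (lowest, median, highest) with LPS, at 7.72, 13.6 and 15.8 TPM with CpG and at 2.28 to 6.68 TPM without a stimulus. The groups lay far apart, and the difference of 7.90 ± 0.15 (SE, 7 pairs, limma adjusted p = 7.84e-10) was the largest among the genes named by rule. Groups that do not overlap in the LPS-higher direction were seen for 8.38% of all tested genes.

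The interleukin-1 genes lie side by side on chromosome 2 (Il1a 129299610 to 129309972, Il1b 129364570 to 129371139) and encode alarm cytokines that act on 1 receptor. Il1b was at 16325, 17694 and 19346 TPM with LPS and 144, 286 and 405 TPM with CpG, a difference of 6.05 ± 0.15. Il1a was at 9705, 10237 and 10881 TPM with LPS and 126, 212 and 253 TPM with CpG, a difference of 5.73 ± 0.12. For both genes every LPS library was above every CpG library, and the CpG range began within that of unstimulated cells (76.5 to 254 TPM for Il1b, 84.6 to 141 TPM for Il1a). Tnf, the prototype inflammatory cytokine, differed less, at 3549 to 6808 TPM against 218 to 413 TPM (3.76 ± 0.08). Il12b, the shared chain of IL-12 and IL-23, was at 75.5 to 217 TPM against 2.24 to 6.15 TPM (4.70 ± 0.16).

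Il10, the anti-inflammatory cytokine gene, was the 1 lower member and is named after its values were seen. It was at 5.87, 7.65 and 11.5 TPM with LPS, 15.8, 19.2 and 21 TPM with CpG and 0.740 to 2.37 TPM without a stimulus. Both stimuli thus stood above unstimulated cells, CpG the higher in all 7 pairs (-1.21 ± 0.08, adjusted p = 1.67e-07).

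After Il6, the next largest differences belonged to Csf3 and Csf2, growth factor genes for myeloid cells. Csf3, which encodes the granulocyte factor G-CSF, was at 358, 544 and 1156 TPM with LPS and 1.02, 3.36 and 6.10 TPM with CpG (7.23 ± 0.15). Csf2, which encodes GM-CSF, was at 134, 189 and 310 TPM with LPS and at 0 to 0.695 TPM with CpG (7.19 ± 0.14), a range that overlapped the 0.135 to 0.656 TPM of unstimulated cells. Csf1r, the receptor that maintains macrophages, went the other way, at 151, 192 and 238 TPM with LPS, 781, 910 and 984 TPM with CpG and 1065 to 1264 TPM without a stimulus (-2.22 ± 0.08). Of the 6 tested genes of this list 4 were higher and 1 lower.

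Most chemokine genes that passed were higher with LPS. Of 12 CC chemokine genes 7 were higher and none lower, and of 9 CXC genes 6 were higher and 2 lower. The monocyte attractants Ccl2 and Ccl7, neighbours on chromosome 11 (82035571 to 82037453 and 82045712 to 82047525), were at 1587 to 4345 TPM and 393 to 2162 TPM with LPS, against 5.86 to 39.4 TPM and 1.38 to 10.5 TPM with CpG. Their differences were 6.94 ± 0.22 and 6.88 ± 0.24. The neutrophil attractant Cxcl1 was at 5182, 8906 and 11217 TPM with LPS and 88.9, 123 and 229 TPM with CpG (5.91 ± 0.14), and Cxcl2, whose NF-κB letters are printed above, at 17959 to 25438 TPM against 269 to 812 TPM (5.28 ± 0.14). Cxcl10, an interferon-induced attractant of T cells, was at 1318, 2292 and 3879 TPM with LPS and 11.3, 30.7 and 79.3 TPM with CpG (6.20 ± 0.28). The lower pair, named after their values were seen, were the B cell attractant Cxcl13 (-1.50 ± 0.13) and Cxcl14 (-1.15 ± 0.15). Cxcl13 ranged from 38.0 to 335 TPM with LPS and from 97.6 to 804 TPM with CpG, so its groups overlapped although each pair had the same sign.

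**Figure D2:**
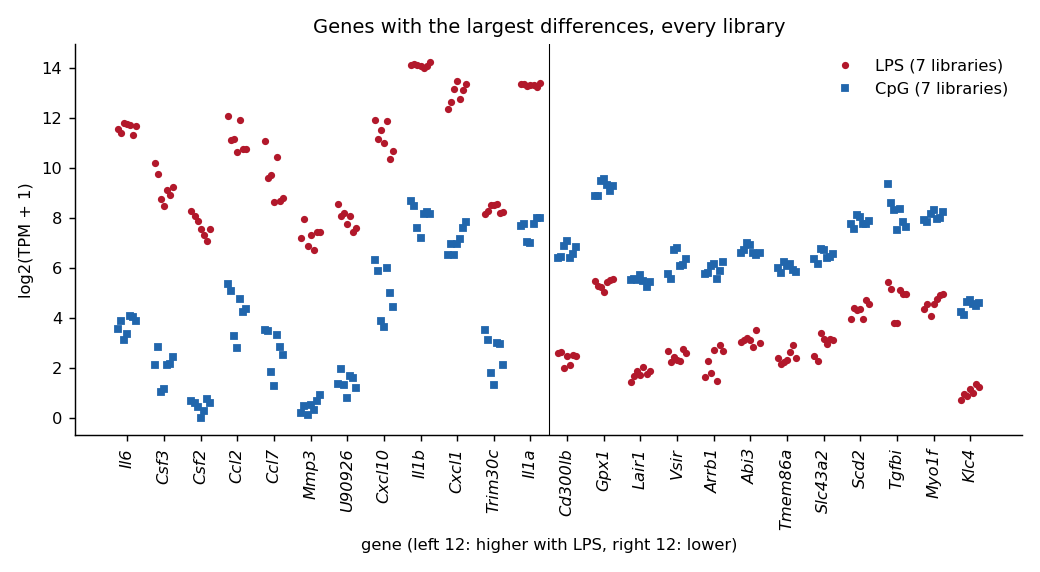
Levels as log2(TPM + 1) of the 12 genes with the largest LPS-higher and the 12 with the largest LPS-lower differences, each point a library (red circles LPS, blue squares CpG, 7 each, in the same pair order). For all 24 genes the LPS points lie wholly above or wholly below the CpG points, from 2542 against 15.8 TPM at the nearest for Il6 to 5.10 against 82.1 TPM for Cd300lb.

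The other 3 of the 12 genes with the largest LPS-higher differences were a protease, a transcript without a stated role and a tripartite motif gene. Mmp3, a matrix metalloproteinase, was at 104, 159 and 245 TPM with LPS and 0.0907 to 0.886 TPM with CpG (6.81 ± 0.11). U90926 was at 173 to 377 TPM against 0.713 to 2.86 TPM (6.56 ± 0.15), and Trim30c at 279 to 378 TPM against 1.48 to 10.4 TPM (5.81 ± 0.28). Among other proteases and clotting genes, Mmp13 (3.64 ± 0.17) and the tissue factor gene F3 (3.83 ± 0.17) were higher. Of the 16 list members 9 were higher and 5 lower, beside 13.1% and 39.6% of all tested genes. The prostaglandin synthase gene Ptgs2 was at 2029, 2401 and 2830 TPM with LPS and 28.7, 73.0 and 77.9 TPM with CpG (5.37 ± 0.19), whereas its constitutive relative Ptgs1 was at 1.40 to 2.63 TPM against 11.6 to 20.1 TPM (-2.44 ± 0.10). The inducible nitric oxide synthase Nos2 was at 197 to 480 TPM with LPS and 9.46 to 86.1 TPM with CpG (3.20 ± 0.33).

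Hdc, which makes histamine, was at 116, 136 and 166 TPM with LPS and 1.01, 5.01 and 7.13 TPM with CpG (4.92 ± 0.29). Hdc is also in the list of mast cell markers, whose summed level over 10 genes was 141 to 220 TPM with LPS and 6.01 to 147 TPM with CpG. The median of that sum was 174 TPM with LPS and 16.3 TPM with CpG. Hdc itself, at 116 to 166 TPM with LPS, was most of the LPS sum. The higher sum with LPS thus largely restates the Hdc difference. The mast cell protease genes Cma1, Mcpt4, Cpa3 and Tpsb2 had no call, and their levels went with the genotype label. Cma1 was at 20.8 to 25.9 TPM with LPS and 23.8 to 34.2 TPM with CpG in the 3 wild-type pairs, and at 0.572 to 2.26 TPM and 1.17 to 3.55 TPM in the other 4. Hdc with LPS was at 116 to 128 TPM in wild type and at 136 to 166 TPM in the other 4 pairs, and with CpG at 6.27 to 7.13 TPM and 1.01 to 5.01 TPM. Hdc was thus lower in wild type with LPS and higher with CpG, whereas Cma1 was higher in wild type with both. None of the 10 markers was at 0 in all 14 libraries, and the part of mast cells in the Hdc differences was not tested.

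Interferon-stimulated antiviral genes were higher with LPS as a whole list: 29 of 29 tested members passed on both scales, with a median of 2.65 (3.41 after scaling). Rsad2, which encodes the antiviral enzyme viperin, was at 909, 1318 and 1983 TPM with LPS and 14.9, 48.3 and 75.8 TPM with CpG (5.11 ± 0.31). Ifit1, which binds foreign RNA caps, was at 512, 634 and 737 TPM with LPS and 16.9, 72.7 and 116 TPM with CpG (3.66 ± 0.34). Every LPS library was above every CpG library for both genes. The unstimulated libraries were at 14.4 to 39.3 TPM for Rsad2 and 13.2 to 50.3 TPM for Ifit1, within or near the CpG range.

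The guanylate-binding proteins and immunity-related GTPases, which attack vacuoles of intracellular pathogens, gave 13 of 13 higher with a median of 2.39 (3.10 after scaling). Gbp5 was at 459, 527 and 632 TPM with LPS and 39.6, 86.2 and 94.1 TPM with CpG (2.98 ± 0.21). Iigp1 was at 115 to 260 TPM against 8.78 to 39.9 TPM (2.88 ± 0.31). Irf7, the interferon regulatory factor that amplifies interferon-α, was at 958 to 1743 TPM against 68.7 to 537 TPM (2.75 ± 0.31), and 2 of 7 interferon regulatory factor genes were higher with none lower. Stat2, a signal carrier of the interferon receptor, was higher (1.46 ± 0.15) and Ifngr1, the ligand-binding chain of the interferon-γ receptor, was lower (-1.56 ± 0.08).

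The interferon genes themselves were near the detection limit. Ifnb1 was at 0.852 to 2.31 TPM with LPS and 0 to 0.354 TPM with CpG, and was not tested because its mean was under 1 TPM. Ifng was at 2.05, 3.10 and 4.62 TPM with LPS and 0.0659, 0.263 and 0.688 TPM with CpG (1.69 ± 0.14), beside T and NK cell markers whose summed ranges overlapped. Counting depth is not stated in the file, so no floor can be put on these low values.

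The motif letters followed the lists in part. An ISRE core was in the window from 250 bases before to 50 after the start in 13 of 21 interferon-stimulated genes with a window (61.9%) and 9 of 9 GTPase genes, against 943 of 27025 windows of all genes (3.49%). Over genes at least 2-fold higher with LPS it was in 67 of 383 (17.5%), and over those at least 2-fold lower in 13 of 772 (1.68%). Among all tested genes with a window the share was 3.36% (291 of 8654). The NF-κB consensus was in 4 of 7 CXC chemokine genes, 3 of 12 cytokine genes and 1 of 7 CC chemokine genes, against 8.18% of all windows. It was also in 9 of 12 genes of NF-κB subunits and inhibitors (75.0%). Genes without a call were among the matches, such as Ccl9, Ebi3, Nfkbie, Bcl3 and Cyld. The 2-fold higher genes held it in 55 of 383 windows (14.4%) and the 2-fold lower genes in 71 of 772 (9.2%). The share among tested genes with a window was 10.0% (866 of 8654), so the lower genes were slightly under it. The sterol core was in 1 of 15 sterol synthesis genes, Hmgcs1, against 1.22% of all windows and 0.971% of those of tested genes.

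The receptor genes Tlr4 and Tlr9 differed little on TPM beside the cytokine genes above, and Cd14 differed more than they did. Tlr4 (chromosome 4, 66827584 to 66930284) was at 48.5, 55.5 and 70.4 TPM with LPS and 38.0, 44.8 and 48.8 TPM with CpG, overlapping ranges with a difference of 0.35 ± 0.08 (1.11 after scaling, called higher). Tlr9 (chromosome 9, 106222598 to 106226883) was at 4.13, 4.61 and 5.78 TPM with LPS and 2.99, 4.19 and 4.96 TPM with CpG, a difference of 0.16 ± 0.07 with no call on TPM (adjusted p = 0.0655) and 0.79 after scaling. Cd14, which hands LPS to TLR4, was at 1951, 2315 and 3118 TPM with LPS and 696, 864 and 1077 TPM with CpG (1.51 ± 0.04).

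Of 12 genes of the TLR4 complex and its adaptors 3 were higher and 3 lower, beside 13.1% and 39.6% of all tested genes. Ticam2, which bridges TLR4 to TRIF, was lower (-1.47 ± 0.06), as was Cd180, a TLR4-like surface protein that is abundant on B cells (-1.37 ± 0.08). Among 15 genes of endosomal TLRs and their handling 5 were higher and 4 lower. Nothing particular to either list is read from these counts. Of the receptors themselves, the double-stranded RNA receptor Tlr3 was higher, at 29.6 to 58.8 TPM against 6.81 to 13.9 TPM (1.86 ± 0.14), as was Tlr7 (0.45), whereas Tlr8 (-1.35) and Tlr13 (-1.29) were lower. The kinase gene Irak1 was lower (-1.25 ± 0.05) and the inhibitory relative Irak3 higher (0.89 ± 0.04).

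Some inhibitors of these receptors' signalling were higher and others had no call. Of 16 genes of NF-κB subunits and inhibitors 8 were higher, the subunits Nfkb1 (1.17) and Nfkb2 (1.03) included, and none lower, while 8 had no call. Among these was the deubiquitinase gene Cyld, chosen after its values were seen, at -0.62 on TPM and 0.12 after scaling. The higher ones held Tnfaip3, which encodes the deubiquitinase A20 (639, 705 and 745 TPM against 117, 150 and 157 TPM, 2.30 ± 0.06) and the IκB-like regulator Nfkbiz (1.63 ± 0.07). Of 16 SOCS, DUSP and mRNA decay genes 12 were higher and 2 lower. Socs1 (3.04 ± 0.12) and Cish (3.42 ± 0.12), which curb cytokine receptors, and the RNase gene Zc3h12a (2.23 ± 0.05) led them. The co-stimulatory gene Cd40 was at 464 to 658 TPM against 70.4 to 136 TPM (2.52 ± 0.12) and the checkpoint ligand gene Cd274 at 511 to 684 TPM against 119 to 195 TPM (1.88 ± 0.08). On the co-stimulation and checkpoint list 6 of 11 genes were higher and 2 lower, beside 13.1% and 39.6% of all tested genes. Of 15 MHC class I genes 9 were higher, such as the peptide transporter Tap1 (1.76 ± 0.14), and of 8 class II genes 1 was; the difference between the classes was not tested. The necroptosis effector Mlkl was also higher (2.39 ± 0.14).

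**Figure D3:**
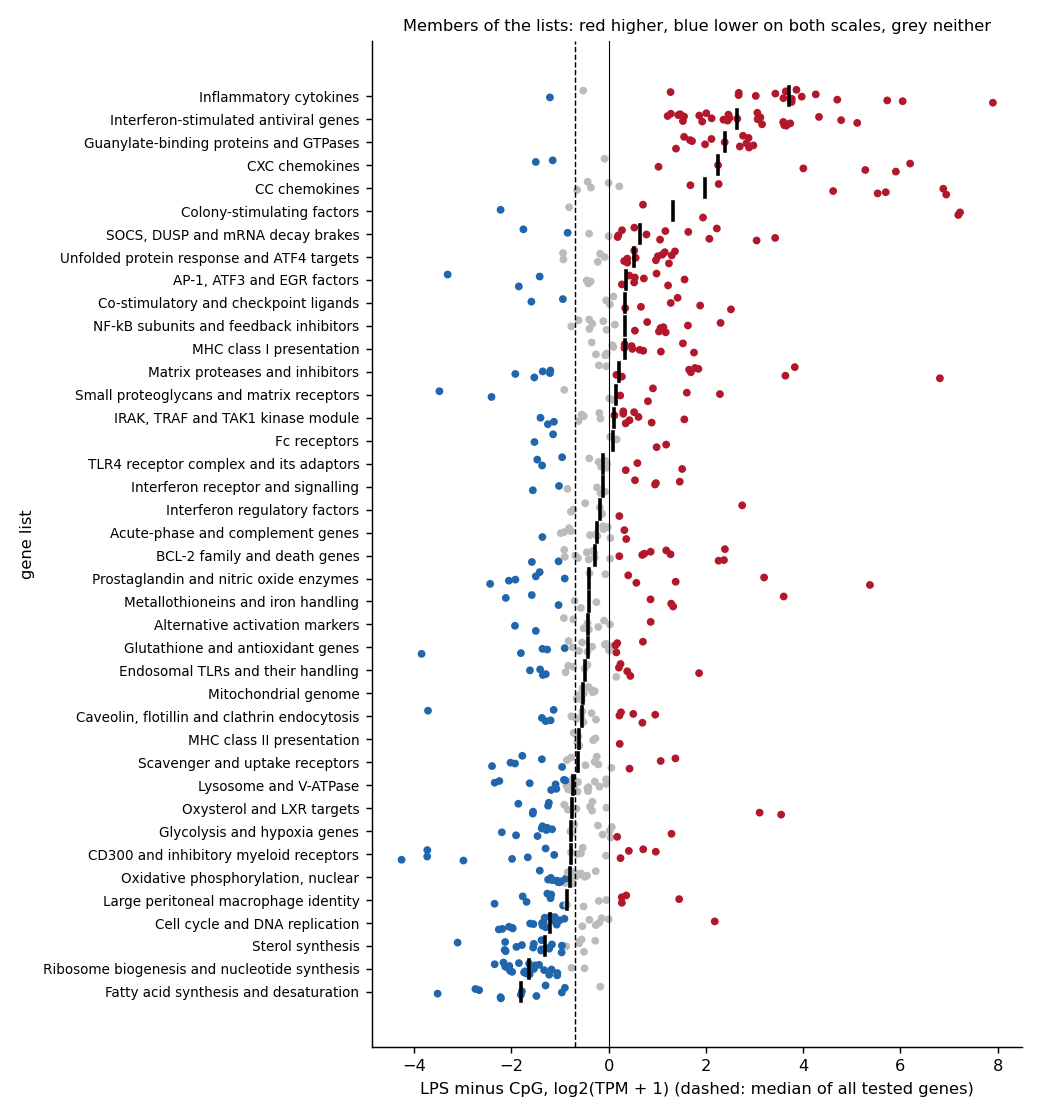
LPS minus CpG (x axis, log2(TPM + 1)) of each tested gene in 40 gene lists with at least 5 tested genes, ordered by list median (black bars). Red genes were higher and blue genes lower on both scales, grey genes neither; the dashed line is the median of all tested genes (-0.70), and cytokines, interferon-stimulated genes and GTPases lie farthest right, fatty acid and ribosome genes farthest left.

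The largest LPS-lower difference was that of a surface receptor. Cd300lb, a CD300-family receptor of myeloid cells (chromosome 11, 114922781 to 114934386), was at 2.94, 4.53 and 5.10 TPM with LPS, 82.1, 93.4 and 134 TPM with CpG and 137 to 161 TPM without a stimulus (-4.26 ± 0.13, adjusted p = 2.89e-09). The inhibitory collagen receptor Lair1 was at 1.68, 2.38 and 3.02 TPM against 37.0, 44.5 and 50.8 TPM (-3.73 ± 0.09). Vsir, the checkpoint receptor VISTA, was at 3.64, 4.41 and 5.80 TPM against 46.0, 68.1 and 110 TPM (-3.73 ± 0.16). In this list of 17 inhibitory and CD300 genes 8 were lower and 4 higher, beside 39.6% and 13.1% of all tested genes, and nothing particular to the list is read from these counts.

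Gpx1, a glutathione peroxidase that removes hydrogen peroxide, was at 31.4, 42.5 and 46.0 TPM with LPS and 461, 624 and 747 TPM with CpG (-3.85 ± 0.13). Arrb1, β-arrestin 1, which uncouples G protein-coupled receptors, was at 1.78 to 6.53 TPM against 45.9 to 73.7 TPM (-3.71 ± 0.15). For both, the CpG range reached below and overlapped that of unstimulated cells, at 608 to 847 TPM for Gpx1 and 68.3 to 94.6 TPM for Arrb1. Abi3, an adaptor of actin regulation (-3.60 ± 0.09), Tmem86a, which cleaves lysoplasmalogens (-3.57 ± 0.10), the amino acid transporter Slc43a2 (-3.56 ± 0.08), the unconventional myosin Myo1f (-3.46 ± 0.11) and the kinesin light chain Klc4 (-3.43 ± 0.09) followed. No LPS library overlapped a CpG library for any of them, as for 62.3% of all tested genes in the LPS-lower direction.

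Tgfbi, a secreted matrix protein, was at 12.8, 30.2 and 42.6 TPM with LPS, 181, 319 and 643 TPM with CpG and 62.4 to 152 TPM without a stimulus (-3.48 ± 0.19). The CpG libraries were thus above and the LPS libraries below the 5 unstimulated ones, although with all 7 the unstimulated level of Tgfbi reached 291 TPM and overlapped CpG. Scd2, a fatty acid desaturase, was at 14.5, 19.6 and 24.9 TPM against 188, 213 and 272 TPM, with 85.9 to 183 TPM across all 7 unstimulated libraries (-3.52 ± 0.10), again between the stimuli. Among the syndecans, which are surface proteoglycans, Sdc4 was higher (2.29 ± 0.05) and Sdc1 lower (-2.41 ± 0.11).

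Most lipid synthesis genes were lower with LPS. Of 22 sterol synthesis genes 16 were lower and none higher on both scales, with a median of -1.31 (-0.56 after scaling). Of 12 fatty acid genes 11 were lower and none higher, with a median of -1.79 (-1.05). Over all tested genes 39.6% were lower and 13.1% higher. After scaling alone, 5 of the 22 sterol genes and 1 of the 12 fatty acid genes were higher. Dhcr7, the last enzyme of one route to cholesterol, was at 1.47, 1.74 and 2.95 TPM with LPS, 22.7, 24.7 and 29.1 TPM with CpG and 17.8 to 31.0 TPM without a stimulus (-3.11 ± 0.08). Fads2, a desaturase for polyunsaturated fatty acids, was at 2.15 to 4.06 TPM against 22.0 to 37.2 TPM, and at 3.79 to 27.3 TPM unstimulated (-2.74 ± 0.10). Fasn, fatty acid synthase, was at 6.09 to 14.4 TPM against 46.4 to 50.3 TPM, with the unstimulated libraries between 13.5 and 37.3 TPM (-2.21 ± 0.15). Hmgcs1, the mevalonate pathway enzyme with the sterol core printed above, differed by -0.97 ± 0.05 on TPM and by -0.20 after scaling.

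The oxysterol enzymes did not share a direction. Ch25h, which makes 25-hydroxycholesterol, was at 185, 322 and 963 TPM with LPS and 6.90, 42.5 and 109 TPM with CpG (3.55 ± 0.31). Cyp7b1, which hydroxylates it further, was at 8.94, 19.6 and 25.5 TPM with LPS and 0.905 to 1.72 TPM with CpG (3.11 ± 0.15). Cyp27a1, the sterol 27-hydroxylase, was lower (-1.56, means of 0.37 and 3.07 TPM). On the oxysterol and LXR list 2 of 14 genes were higher and 5 lower, shares near the 13.1% and 39.6% of all tested genes.

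Most genes of ribosome production and replication were lower with LPS than with CpG. Of 23 ribosome biogenesis and nucleotide synthesis genes 21 were lower and none higher, with a median of -1.63 (-0.88 after scaling). Over all tested genes 39.6% were lower and 13.1% higher. Myc, a transcription factor that promotes ribosome production, was at 3.13, 5.23 and 7.98 TPM with LPS, 19.1, 25.3 and 29.1 TPM with CpG and 4.55 to 7.30 TPM unstimulated (-2.09 ± 0.08). Ctps, which makes CTP, was at 1.43 to 2.58 TPM, 8.34 to 13.6 TPM and 2.79 to 3.84 TPM in the same order (-2.16 ± 0.09). For both genes every CpG library was above the unstimulated range, while LPS overlapped it for Myc and lay below it for Ctps. Gart, a purine synthesis enzyme, differed by -2.34 ± 0.08, but its unstimulated range of 29.7 to 47.2 TPM overlapped the 34.7 to 48.7 TPM of CpG.

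Cell cycle genes gave 18 lower and 1 higher of 25 on both scales, with a median of -1.20 (-0.61 after scaling). After scaling alone, 6 of the 25 were higher. Mcm2, a subunit of the replicative helicase, was at 1.21, 2.11 and 2.49 TPM with LPS, 9.92, 12.7 and 16.5 TPM with CpG and 3.86 to 4.90 TPM unstimulated (-2.26 ± 0.09). Mki67, the proliferation marker Ki-67, was the higher member, at 32.0, 47.9 and 70.6 TPM with LPS and 6.13, 11.5 and 14.2 TPM with CpG (2.18 ± 0.09). Its direction was opposite to that of the other called members.

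Stress and degradation genes differed by list. Of 17 unfolded protein response and ATF4 target genes 12 were higher and none lower, with Hspa5, the chaperone BiP, at 1475 to 1842 TPM against 640 to 731 TPM (1.24 ± 0.04) and the cystine transporter Slc7a11 at 571 to 1056 TPM against 258 to 395 TPM (1.36 ± 0.11). Lysosome genes gave 8 of 24 lower and nuclear oxidative phosphorylation genes 9 of 24 lower, shares close to the 39.6% of all tested genes, so neither list is set apart by its count. Within the lysosome list, Tfeb, a regulator of lysosomal genes, was at 2.20 to 4.53 TPM with LPS against 13.9 to 23.7 TPM with CpG (-2.34 ± 0.08). The proton pump subunit gene Atp6v0d2 was at 1.46 to 5.28 TPM against 8.86 to 35.6 TPM (-2.25 ± 0.12). Of the 13 mitochondrially encoded genes 12 were lower on TPM (list median -0.53) and 13 higher after scaling (0.24). The scales thus disagreed in direction, and none had a call on both.

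Of 6 Fc receptor genes 2 were higher and 2 lower, beside 13.1% and 39.6% of all tested genes, and nothing particular to the list is read from this. Fcgr2b, the inhibitory IgG receptor, was at 1762 to 2250 TPM with LPS and 704 to 1119 TPM with CpG (1.18 ± 0.07), and Fcgr3, an activating one, at 114 to 219 TPM and 336 to 495 TPM (-1.52 ± 0.11). The macrophage gene Lyz2, lysozyme, was at 9666 to 13270 TPM against 29231 to 33688 TPM (-1.38 ± 0.07). Adgre1 was not called on TPM (0.01 ± 0.04, 95% interval -0.09 to 0.10) and was higher after scaling (0.78). In bulk samples, fewer cells of a type and less RNA per cell cannot be told apart. Lcn2, the iron-scavenging lipocalin, was higher (3.60 ± 0.16).

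The 7 pairs ranked genes alike: across tested genes, pair differences correlated at 0.868 to 0.918 over the 21 combinations of pairs, given as a description. The named genes with the largest spread between pairs were mostly interferon-stimulated. The SD of the 7 pair differences was 1.30 for Ifit3, 1.22 for Ifit2, 1.19 for Oasl1, 1.15 for Ifit1 and 1.14 for Ifi44, and 1.68 for the pseudogene Dynlt1-ps1, against 0.49 for Il6. Dynlt1-ps1 shares sequence with Dynlt1 genes, so its estimate is uncertain.

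Among these genes, Ifit1 and Oasl1 varied more between CpG than between LPS libraries. Ifit1 was at 643 and 578 TPM with LPS in the pairs labelled Lum-/- (no protein, lumican), at 679 and 634 TPM in the pairs labelled Bgn-/- (no protein, biglycan) and at 737, 512 and 522 TPM in wild type (no protein, lumican, biglycan). With CpG it was at 116 and 82.7 TPM, 19.1 and 16.9 TPM, and 88.5, 72.7 and 26.3 TPM in the same order. LPS levels thus spanned a narrow range, while CpG levels were lowest with the Bgn-/- label and in wild type with biglycan. Oasl1, an OAS-like antiviral gene, was also lowest there with CpG: 47.7 and 32.9 TPM, 5.82 and 5.30 TPM, and 32.0, 30.1 and 9.33 TPM. Without a stimulus Ifit1 was at 76.1 and 50.3 TPM, 13.2 and 68.1 TPM, and 17.1, 31.5 and 22.5 TPM, the 76.1 and 68.1 TPM being the libraries that stood apart.

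**Figure D4:**
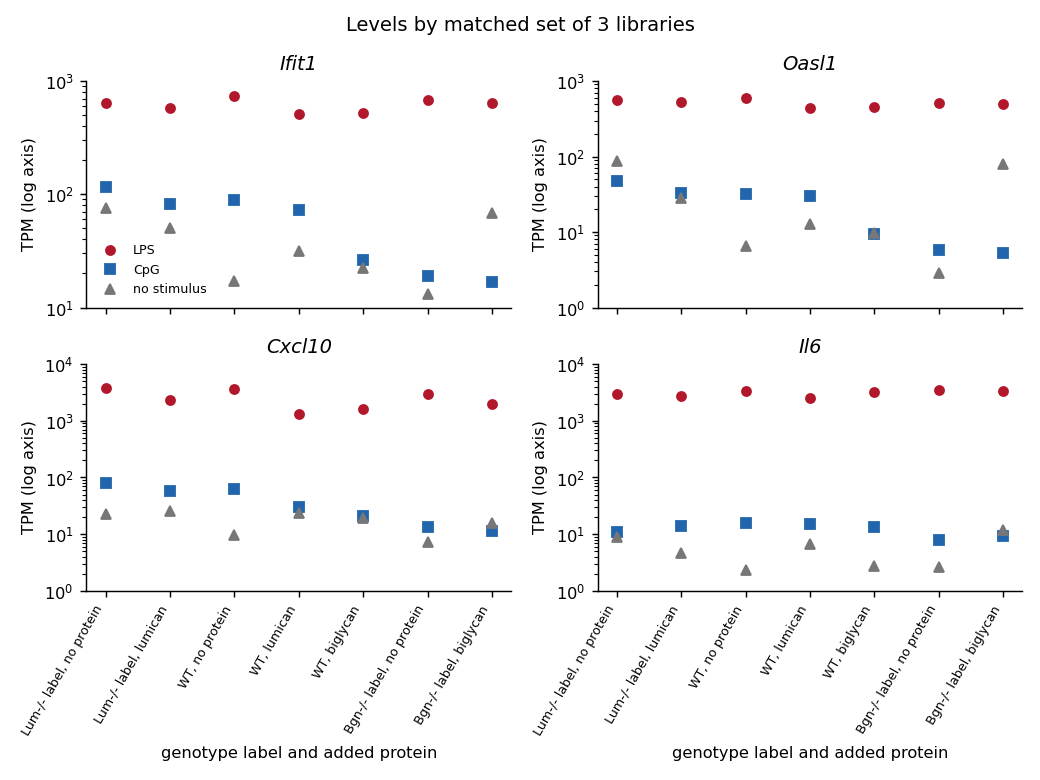
TPM (log axes) of Ifit1, Oasl1, Cxcl10 and Il6 in each matched set of 3 libraries (red circles LPS, blue squares CpG, grey triangles no stimulus). LPS points of Ifit1 lie between 512 and 737 TPM, whereas its CpG points lie between 116 TPM in the Lum-/- label and 16.9 TPM in the Bgn-/- label, and those of Il6 between 7.72 and 15.8 TPM.

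Tested on the 7 pair differences, LPS minus CpG was lower with the Lum-/- than with the Bgn-/- label for 191 genes (1.66% of 11518). It was higher for 39 (0.339%), and these counts on TPM were 130 and 23 after scaling. Lower and higher refer to the signed value. For Cd300lb, which was lower with LPS (-4.26), a higher value (0.95) thus means a smaller gap between the stimuli with the Lum-/- label. The 191 went to 1 without either Lum-/- labelled pair or without the Bgn-/- labelled pair with biglycan, and to 20 without the Bgn-/- labelled pair without protein. Of the antiviral list 26 of 29 members were among the 191, with a median over the list of -1.77 against 0.00 over all genes, and of the GTPase list 11 of 13, with a median of -1.52. The largest were Ifit3 (-2.85 ± 0.45, adjusted p = 0.0198), Ifit2 (-2.66 ± 0.43), Ifi44 (-2.64 ± 0.29), Oasl1 (-2.54 ± 0.45) and Ifit1 (-2.50 ± 0.40). After scaling 17 of the 29 and 10 of the 13 passed, and of those named Oasl1 did not (limma adjusted p = 0.0563). Each label has 2 pairs. Without either pair labelled Lum-/- or without the Bgn-/- pair with biglycan none of the 29 passed, and without the Bgn-/- pair without protein 1 did, against 23 to 27 without a wild-type pair. The GTPase count went to 1, 1, 5 and 1 without a Lum-/- or Bgn-/- labelled pair, and to 10 or 11 without a wild-type pair. An ISRE core was in 47 of 143 of the 191 genes that have a window (32.9%), against 3.36% of tested genes with a window. The labels also differ in cell preparation, which cannot be told apart from genotype.

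Against wild type, signed LPS minus CpG in the Bgn-/- label was higher for 35 genes (0.304%) and lower for 10 (0.0868%). These label counts are on TPM, and after scaling they were 13 and 5. They included Hdc (2.13 ± 0.16), the chemokines Cxcl3 (1.68 ± 0.11) and Cxcl10 (1.66 ± 0.23), the ferroxidase gene Cp (1.60 ± 0.23) and Iigp1 (1.59 ± 0.22), and, lower, Rasgrp2, an activator of Rap (-1.16 ± 0.15). After scaling Cxcl10 (adjusted p = 0.075), Cp (0.075) and Iigp1 (0.0554) no longer passed by limma, while Hdc, Cxcl3 and Rasgrp2 did. Of the antiviral list 1 of 29 passed, though all 29 had the same sign with a median of 1.16. Leaving out a pair moved the 35 to between 6 (without the Bgn-/- labelled pair without protein) and 98 (without wild type with biglycan). The Lum-/- label against wild type gave 0 calls by limma at adjusted p (0.0%, smallest 0.0926), with 863 genes at an unadjusted p under 0.05, and the antiviral list had a median of -0.57.

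Added protein gave 0 calls by limma in the difference between LPS and CpG (0.0%, smallest adjusted p = 0.0521, 1341 genes at an unadjusted p under 0.05), so no dependence on lumican or biglycan was detectable with 4 pairs with and 3 without protein. A miss in so small a design does not show that the pairs were alike. Ifit1 with CpG in wild type was at 88.5 TPM without protein and 26.3 TPM with biglycan, in single libraries with no replicate check.

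List medians by library show the same values side by side. The median level of the cytokine list lay between 107 and 166 TPM with LPS and between 8.19 and 17.8 TPM with CpG. The antiviral list lay between 327 and 455 TPM with LPS, and with CpG at 21.5 and 23.3 TPM in the Bgn-/- label, 28.5 TPM in wild type with biglycan and 59.6 to 94.6 TPM in the other 4. Sterol genes lay between 13.96 and 26.3 TPM with LPS and between 45.5 and 69.3 TPM with CpG.

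**Figure D5:**
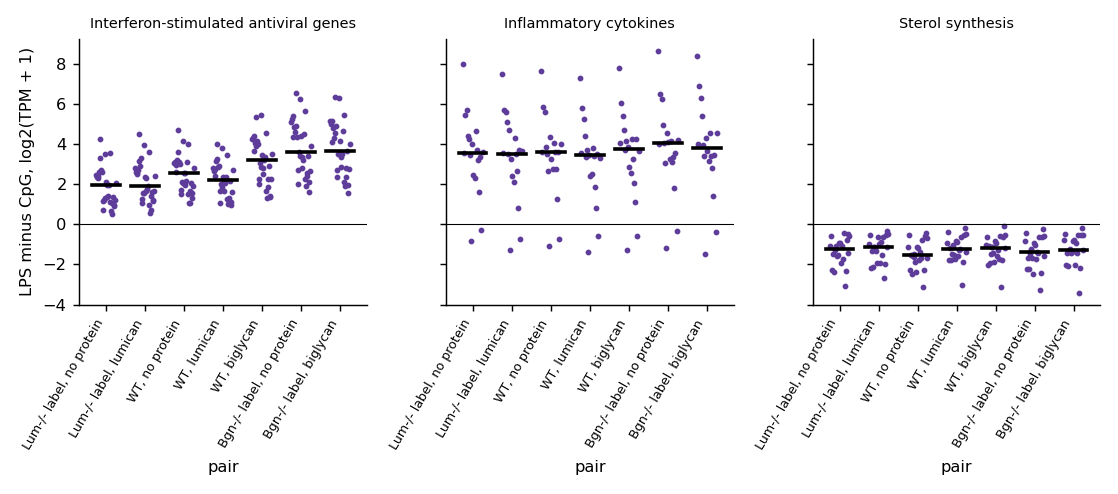
LPS minus CpG (y axis, log2(TPM + 1)) of every tested member of 3 lists in each of the 7 pairs, each point a gene and each bar the list median in that pair. Interferon-stimulated genes stand higher in the Bgn-/- label and in wild type with biglycan than in the Lum-/- label, and the cytokine and sterol medians vary less from pair to pair.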

How the data were processed

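Each of the 21 libraries has 1 column in the table. The TPM values were made by the authors with kallisto 0.44.0 on GRCm38 after bcl2fastq 1.8.4, per the submitters' processing notes, and deposited per transcript. TPM is a share of a library, so a few very abundant genes lower all others. Read depth is not given in the sources used here, so no counting interval can be stated.

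Of 89562 transcripts, 82788 carried a gene name, 5423 more were matched by identifier to GENCODE vM21, and 1351 (5350.9 to 7550.7 TPM per library) were left out. TPM was summed to 23544 genes. The 11518 genes averaging 1 TPM or more over the 14 libraries were tested with limma 3.58.1 (R 4.3.3) on log2(TPM + 1), with the pair as a block and Benjamini-Hochberg adjustment over all of them (threshold 0.05), and again after median-of-ratios scaling. Differences between genotype labels and with protein were fitted on the 7 pair differences. Tables and figures were made with Python 3.11.15, pandas 2.3.3, numpy 2.4.6, scipy 1.17.1 and matplotlib 3.10.9, and the tests were tried on simulated data first.

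Pairs come from the labels: the same genotype label and protein. Deviations from the group means correlated within each pair (0.406, 0.255, 0.244, 0.23, 0.152, 0.174 and 0.163), and in 1 pair, wild type with lumican, the LPS library correlated better with another pair. Alternatives were pseudocounts of 0.1 and 5, no filter or a mean of at least 5 TPM, quantile normalization, no block, and each pair left out.

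Members and lists were chosen with earlier results of these data known. Genes are named by rule: Tlr4, Tlr9, Cd14, Lum and Bgn always; the 12 largest differences each way among genes called on both scales, with 1 sign in 7 pairs and at least 10 TPM in the higher stimulus; the 6 most uneven over pairs; the 8 most abundant alike; up to 5 each way for label and protein differences; and in each list the first 4 and the 4 largest. The text names some of these. Promoter windows are RefSeq's (GRCm38.p6), 1 per gene.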

Additional observations from a re-analysis of the deposited data

Results flagged for a closer look

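In 2 genes, 1 of the 7 pairs lay apart from the rest by a gap larger than Dixon's limit, which chance passes in about 1 in 20 groups. Most genes named in the text were screened this way, so some flags are due by chance, and nothing is read from these 2. LPS minus CpG of Abi3 was -3.03 in wild type with lumican, the highest of its pairs, and that of Irak3 was 1.06 in the pair labelled Bgn-/- without protein.

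For other named genes LPS minus CpG differed between genotype labels by limma's test on the pair differences, adjusted over all genes, on TPM. The values that follow are differences of log2 differences. Each label stands for 2 or 3 pairs, and genotype and cell preparation cannot be told apart.

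Relative to the Bgn-/- label, LPS minus CpG in the Lum-/- label was lower for the interferon-stimulated genes Ifit3 (-2.85), Ifit2 (-2.66), Ifi44 (-2.64), Oasl1 (-2.54), Ifit1 (-2.50), Irf7 (-2.44), Iigp1 (-2.36), Rsad2 (-2.11), Trim30c (-2.09), Cxcl10 (-2.07), Gbp5 (-1.60), Tap1 (-1.06), Mlkl (-1.05) and Stat2 (-1.05). It was also lower for the enzyme genes Nos2 (-2.37), Ch25h (-2.15), Hdc (-1.18) and Ptgs2 (-1.17). Among secreted proteins it was lower for Ccl2 (-1.48), Cxcl3 (-1.17), Il1b (-1.13), Cxcl2 (-0.83), Cxcl1 (-0.82), Ccl3 (-0.67), Il1a (-0.64) and Mmp13 (-0.51), and among receptors for Cd40 (-0.84) and Fcgr2b (-0.48). It was higher for Lum (1.54), Rasgrp2 (1.29), Vsir (1.15), F3 (1.06), Cd300lb (0.95) and Gpx1 (0.90). After median-of-ratios scaling the calls of Oasl1, Rsad2, Stat2, Nos2, Ch25h, Hdc, Ccl2, Cxcl2, Ccl3, Il1a, Mmp13, Cd40, Fcgr2b, Vsir, F3 and Gpx1 in this comparison were lost, with the same direction.

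Relative to wild type, LPS minus CpG in the Bgn-/- label was higher for Hdc (2.13), Cxcl3 (1.68), Cxcl10 (1.66), Cp (1.60), Iigp1 (1.59), Irf7 (1.53), Ptgs2 (1.38), Mmp13 (1.24), Gbp5 (1.18), Cxcl1 (1.03), Ccl3 (0.91), Cxcl2 (0.90), Il1a (0.85), Mlkl (0.81) and Tap1 (0.74). It was lower for Rasgrp2 (-1.16). Here scaling ended the calls of Cxcl10, Cp, Iigp1, Irf7, Gbp5, Ccl3, Cxcl2, Il1a, Mlkl and Tap1, again with the same direction.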

How the results depend on the processing

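Among the named genes followed through the alternatives, no called difference reversed. A call of LPS minus CpG needed the same direction on TPM and after scaling, so scaling could not reverse it. Calls on TPM alone did reverse: of 13 mitochondrially encoded genes 12 were lower on TPM and 13 higher after scaling. With median-of-ratios scaling 4484 genes were higher with LPS and 4566 lower, and with quantile normalization 3898 and 4984, against 1507 and 8721 on TPM. Bgn-/- label against wild type gave 13 higher and 5 lower after scaling, and Lum-/- against Bgn-/- gave 23 higher. With a pseudocount of 5 protein gave 1 gene each way. Without the block on pairs, 1440 genes were higher and 8599 lower, 4433 of these on both scales, and Lum lost its call (0.81, limma adjusted p = 0.225). With each pair left out in turn, genes higher with LPS ranged from 1448 to 1522 and lower from 8583 to 8686. The Bgn-/- label against wild type ranged from 6 to 98 higher and 0 to 8 lower, Lum-/- against Bgn-/- from 0 to 39 higher and 1 to 185 lower, Lum-/- against wild type from 0 to 2 higher and 0 lower, and protein from 0 to 1 higher and 0 to 2 lower. Among named genes, LPS minus CpG kept its side of the threshold in 1982 settings and not in 8 (Adgre1, near 0 and without a call, ranged from -0.02 to 0.02 with a pair left out): Tlr9 passed in 3 (without wild type with lumican, 0.20, adjusted p = 0.0318), Adgre1 in 1, and Lum, Dynlt1-ps1 and Saa3 lost theirs in 4. Quantile normalization left Saa3, the most abundant gene, with no difference by its construction. Named differences between labels kept theirs in 316 settings and lost it in 234; the cause was not tested. With a pair of a knockout label left out, that label rests on 1 pair, assumed to vary like the others. Read depth is unknown, which limits genes near 1 TPM.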
